A study of Mus musculus with 9 samples.

Results

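The 10 genes described here degrade heme, carry it across membranes, or make it and sense it: Hmox1, Hmox2, Blvra, Blvrb, Slc48a1, Slc46a1, Flvcr1, Alas1, Fech and Bach1. They were taken by name from the 19938 genes with a probeset of their own on the array. All 10 were measured, and all 10 lay above the filter on dim genes, 10 of the 14953 genes tested. Each is read from 1 probeset, the one with the highest mean where a gene had more than 1. That applied only to Flvcr1.

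The colonic epithelium was scraped from male mice of the inbred strain C57BL/6J, aged 9 to 11 weeks. Every mouse first ate a diet with 40% of its energy as fat for 1 week. The control groups stayed on that diet, and the heme groups ate it with 0.2 µmol heme per g added. RNA of mice with the same diet and day was combined into a pool, with 1 array per pool, which gave 5 control pools (days 0, 2, 4, 7 and 14) and 4 heme pools (days 2, 4, 7 and 14). Each pool held RNA of 4 mice, apart from the control pool of day 2 with 3. The series title sets an oxidative response that begins at once against injury that comes later, and the values below show on which days these 10 genes differed. As no diet and day has a second pool, every p-value measures the spread between pools of different days.

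Heme is an iron-holding ring that serves as the working group of cytochromes, catalase and hemoglobin, and that is reactive when free. Heme oxygenase opens the ring to biliverdin, carbon monoxide and iron, and biliverdin reductase turns biliverdin into bilirubin. Bach1 represses Hmox1 and other genes until heme binds it and Nrf2 takes its place. In the gut, heme from the diet meets the epithelium from the lumen.

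Of the 10 genes, Hmox1 and Slc46a1 moved furthest, in opposite directions. Hmox1 was called on day 14 only, and Slc46a1 on days 7 and 14. A direct test of late against early days passed for neither. Hmox1 was 2.86-fold higher than the control pools after 14 days of heme (log2 fold change 1.52). Slc46a1 was 2.35-fold lower after 7 days and 2.48-fold lower after 14 (log2 fold changes -1.23 and -1.31), though its call of day 7 was lost with 4 of the 5 control pools left out 1 at a time. Alas1 was 1.21-fold higher on day 14 (log2 fold change 0.27). The other 7 genes had no call on any day, with log2 differences between -0.21 and 0.16.

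**Figure D1:**
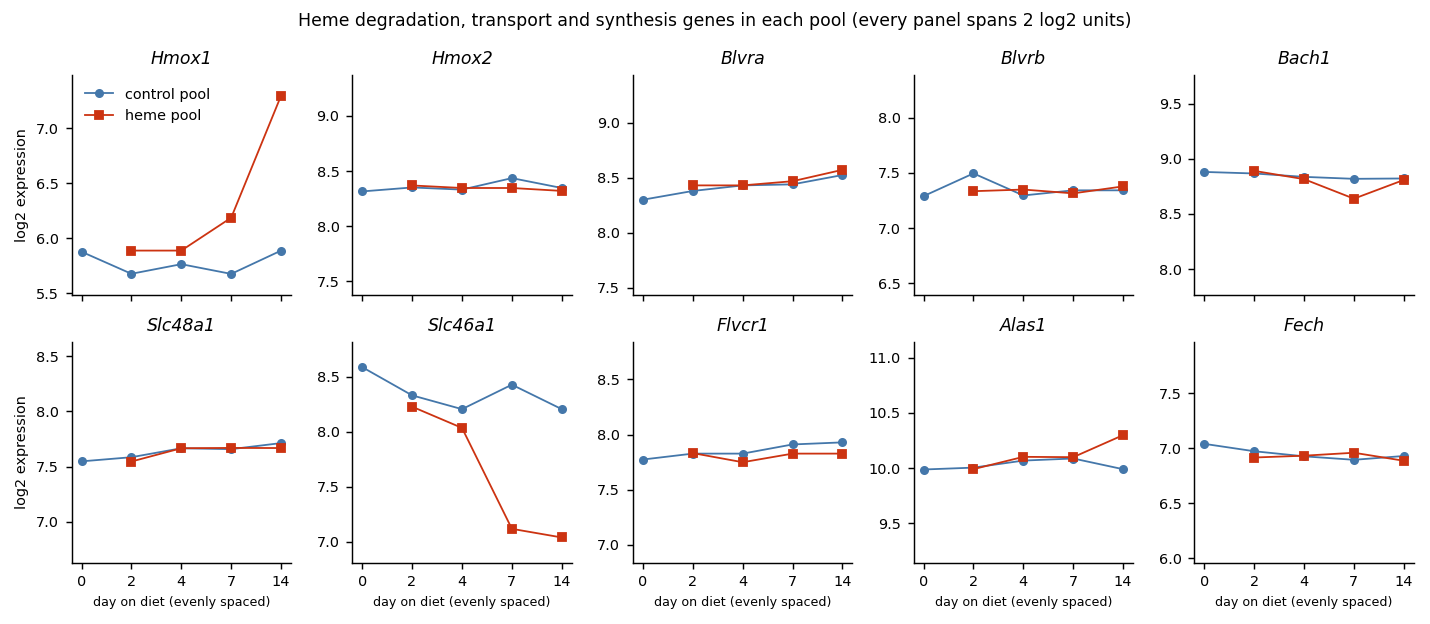
Log2 expression (vertical axis) of the 10 genes by day on diet (horizontal axis, days evenly spaced), with blue circles for control pools and red squares for heme pools, 1 array each and no error bar. Every panel spans 2 log2 units, so slopes can be set side by side; Hmox1 climbs to 7.29 and Slc46a1 drops to 7.04 in the heme pool of day 14, while Hmox2 stays between 8.32 and 8.44 in all pools.

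Hmox1 encodes heme oxygenase 1, the inducible enzyme that opens the heme ring (probeset 10572897). In the control pools it read 5.88, 5.68, 5.77, 5.68 and 5.89 log2 on days 0, 2, 4, 7 and 14. In the heme pools it read 5.89, 5.89, 6.19 and 7.29 on days 2, 4, 7 and 14. The heme pools of days 2 and 4 thus stood at the top of the control range and not beyond it, that of day 7 lay above it, and that of day 14 stood far above every other pool. The control pool of day 14 and the heme pools of days 2 and 4, 3 pools in all, hold the identical value of 5.89.

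Against the mean of the control pools, the difference in Hmox1 was 0.11 log2 on days 2 and 4 (limma adjusted p = 0.895 and 1.00), 0.41 on day 7 (adjusted p = 0.116) and 1.52 on day 14 (SE 0.10, adjusted p = 0.00251). On day 14, 11.3% of all genes tested were called higher, and Hmox1 held rank 18 from the top by fold change. On day 7 it was at rank 342. Set against the control pool of the same day alone, the differences were 0.21, 0.12, 0.51 and 1.41 log2 on days 2, 4, 7 and 14, higher on 4 of 4 days. The call of day 14 held in all 8 other settings tried, with adjusted p between 0.00141 and 0.0153.

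Averaged over days, Hmox1 was 5.78 ± 0.10 log2 on the control diet (SD, n = 5) and 6.31 ± 0.67 on heme (SD, n = 4). The log2 fold change of 0.54 (SE 0.25) was not called by limma (adjusted p = 0.305), and the comparison of diets called 0.669% of all genes. It was 0.21 without the heme pool of day 14. An exact two-sided permutation of the 9 pools gave p = 0.0238 for Hmox1, where 126 splits allow 0.00794 at best. Whether the response was larger late than early was tested directly. The difference between diets on days 7 and 14 exceeded that on days 2 and 4 by 0.79 log2 in Hmox1 (SE 0.42, limma adjusted p = 0.774), a comparison in which limma called 0% of genes (990 genes had an unadjusted p under 0.05). That Hmox1 value became 0.24 when the heme pool of day 14 was left out and 1.34 when that of day 7 was. The rise of Hmox1 thus rests largely on 1 pool of 4 mice.

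Hmox2, the constitutive heme oxygenase (probeset 10433292), was 8.36 ± 0.05 log2 on the control diet (SD, n = 5) and 8.35 ± 0.02 on heme (SD, n = 4). Its log2 fold change was -0.01 (SE 0.03, limma adjusted p = 0.88), and all 4 heme pools lay inside the control range. Heme was above control on 2 of 4 days.

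Of the biliverdin reductases, Blvra encodes the form that acts on the main isomer of biliverdin (probeset 10475708). It read 8.30, 8.38, 8.43, 8.44 and 8.52 log2 on the control diet (days 0, 2, 4, 7 and 14), and 8.43, 8.43, 8.47 and 8.57 on heme (days 2, 4, 7 and 14). On both diets the highest value was that of day 14, and the groups overlapped. The difference in Blvra was 0.06 over all days (SE 0.05, limma adjusted p = 0.524) and 0.16 on day 14 (adjusted p = 0.195). In the control pools alone its slope was 0.05 log2 per unit of log2(day + 1), which did not pass over all genes (unadjusted p = 0.00485, limma adjusted p = 0.677). Blvrb, which reduces another isomer and also flavins (probeset 10551347), differed by -0.01 (SE 0.05, adjusted p = 0.93). Its highest value, 7.50 log2, was in the control pool of day 2, and its other 8 pools lay between 7.29 and 7.38.

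Slc46a1 encodes a proton-coupled carrier of the small intestine, first described as a heme importer and now known mainly as the folate transporter (probeset 10379184). Its promoter is printed because this gene had the deepest fall of the 10. The stretch holds the 250 bases before the start of transcription in RefSeq's annotation of build GRCm38.p6, chr11:78465451-78465700, plus strand, and is written 5′ to 3′, with no capitals because none of the motifs searched lay in it.

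Slc46a1: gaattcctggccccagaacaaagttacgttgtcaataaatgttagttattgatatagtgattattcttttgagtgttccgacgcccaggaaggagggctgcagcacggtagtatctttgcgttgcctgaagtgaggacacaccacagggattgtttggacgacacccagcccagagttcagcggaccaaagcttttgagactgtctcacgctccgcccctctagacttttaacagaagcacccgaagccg

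The Slc46a1 stretch has 49.6% G and C and 11 CpG pairs, beside medians of 52.4% and 6 over the 32851 promoters of the table. In the control pools Slc46a1 read 8.59, 8.33, 8.20, 8.43 and 8.20 log2 on days 0, 2, 4, 7 and 14. In the heme pools it read 8.23, 8.03, 7.12 and 7.04 on days 2, 4, 7 and 14. The heme pool of day 2 lay inside the control range, that of day 4 just below it, and those of days 7 and 14 more than 1 log2 unit below its lower end. Each heme pool was lower than the control pool of its own day, by -0.10, -0.17, -1.31 and -1.16 log2 on days 2, 4, 7 and 14.

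Against the mean of the control pools Slc46a1 was at -0.12 on day 2 (limma adjusted p = 0.96), -0.32 on day 4 (adjusted p = 0.786), -1.23 on day 7 (SE 0.15, adjusted p = 0.0267) and -1.31 on day 14 (SE 0.15, adjusted p = 0.005). On day 7 only 0.749% of the genes tested were called lower, and Slc46a1 ranked 4 from the bottom of 14953. On day 14, when 15.8% were called lower, it ranked 17. Leaving out the control pool of day 2, 4, 7 or 14 ended the call of day 7 (adjusted p = 0.0947, 0.0852, 0.0964 and 0.072), with differences between -1.27 and -1.21. The call of day 14 held in all 8 other settings, with adjusted p between 0.00376 and 0.0195.

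Averaged over days, Slc46a1 was 8.35 ± 0.16 log2 on the control diet (SD, n = 5) and 7.61 ± 0.61 on heme (SD, n = 4), a log2 fold change of -0.75 (SE 0.24, limma adjusted p = 0.195). Exact permutation of the 9 pools gave p = 0.0238 (two-sided). The difference between diets was -1.10 log2 larger late than early in Slc46a1 (SE 0.14). That gave the smallest p of the 10 genes in this test (unadjusted p = 6.5e-05), yet did not pass over all genes (limma adjusted p = 0.304, or 0.0674 with the day as a block). With either late heme pool left out, the late-minus-early value of Slc46a1 was -1.14 (day 7 left out) or -1.06 (day 14 left out).

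Slc48a1, also called Hrg1, moves heme out of lysosomes and endosomes into the cytosol (probeset 10426544). It was 7.63 ± 0.07 log2 on the control diet (SD, n = 5) and 7.64 ± 0.06 on heme (SD, n = 4), with an SE of 0.05 on the difference (limma adjusted p = 0.975). Flvcr1, known as an exporter of heme from the cell (probeset 10361065), read between 7.77 and 7.93 in the control pools and between 7.75 and 7.83 in the heme pools. Its log2 fold change was -0.04 (SE 0.04, adjusted p = 0.575). The other Flvcr1 probeset, 10361075, read 6.78, 6.78, 6.78 and 6.89 in the heme pools of days 2, 4, 7 and 14, and between 6.55 and 6.78 in the control pools. With the mean of both probesets the Flvcr1 difference turned to 0.03 (adjusted p = 0.747). Neither Slc48a1 nor Flvcr1, the latter by its probeset with the higher mean, was called on any day. The other Flvcr1 probeset was not tested by day.

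Alas1 encodes the housekeeping 5-aminolevulinate synthase, which sets the rate of heme synthesis and is known to be repressed by heme in liver (probeset 10596454). Of its 2 starts in RefSeq's annotation, the downstream one has in the 250 bases before it 3 matches to the core motif of nuclear respiratory factor 1, GCGCANGCG, searched on both strands. They are CGCGTGCGC at -223 to -215, GCGCATGCG at -195 to -187 and, overlapping it on the other strand, CGCATGCGC at -194 to -186, counted from that start. Of all promoters, 5.16% hold at least 1 match. Nuclear respiratory factor 1 is a known activator of Alas1. These matches are letters in a window and no evidence of binding here.

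Alas1 lay between 9.99 and 10.09 log2 in the 5 control pools, and the heme pools read 9.99, 10.10, 10.10 and 10.30 on days 2, 4, 7 and 14. The heme pool of day 2 lay within the control range, those of days 4 and 7 barely above it, and that of day 14 lay 0.31 above the control pool of its day. The day 14 difference from the control mean was 0.27 (SE 0.05, limma adjusted p = 0.0136). It was among the 11.3% of genes called higher that day, at rank 2145 from the top. Over all days Alas1 differed by 0.10 (SE 0.06, adjusted p = 0.385). Fech encodes ferrochelatase, the enzyme that puts iron into the ring as the last step of synthesis (probeset 10459391). It was 6.95 ± 0.06 log2 on the control diet (SD, n = 5) and 6.92 ± 0.03 on heme (SD, n = 4), with a log2 fold change of -0.03 (SE 0.04, adjusted p = 0.72).

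Bach1, the heme-sensing repressor (probeset 10436734), read 8.88, 8.87, 8.84, 8.82 and 8.82 log2 in the control pools of days 0, 2, 4, 7 and 14. The heme pools read 8.89, 8.82, 8.64 and 8.81 on days 2, 4, 7 and 14. The heme pool of day 7 stood alone below the rest, at -0.21 against the control mean (SE 0.04, limma adjusted p = 0.0659), and on day 14 the difference was -0.04 (adjusted p = 0.56). Bach1 protein is controlled by heme binding and degradation, which an RNA array does not measure.

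**Figure D2:**
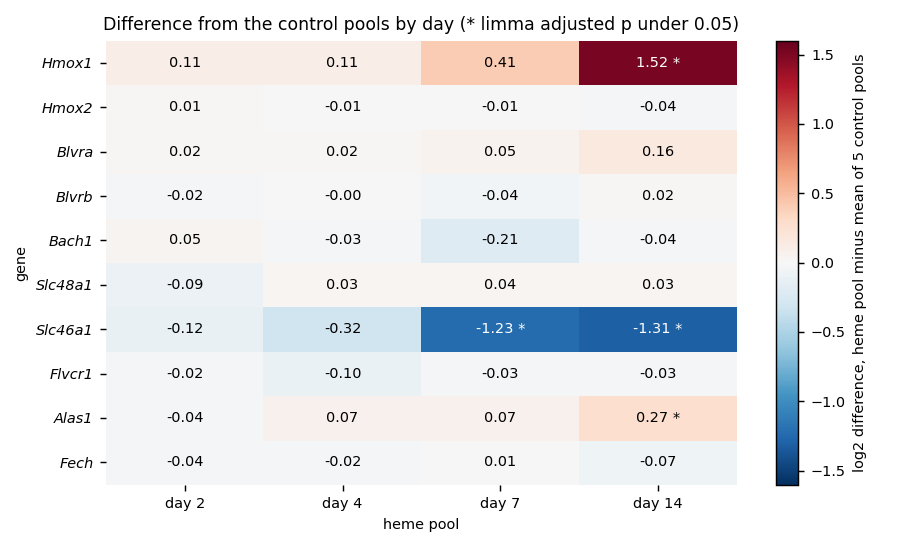
Log2 difference of each heme pool from the mean of the 5 control pools (colour and printed value) for the 10 genes (rows) on days 2, 4, 7 and 14 (columns), with an asterisk at a limma adjusted p under 0.05. The asterisks lie on Slc46a1 on day 7 (-1.23) and on Hmox1 (1.52), Slc46a1 (-1.31) and Alas1 (0.27) on day 14.

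By count, 0 of the 10 genes were called by limma on day 2 (0 also at an unadjusted p under 0.05), against 0% of all genes (1385 unadjusted), and 0 on day 4 (0 also unadjusted), against 0.00669%. On day 7 it was 1 of 10, against 1.63%. On day 14 it was 3 of 10, against 27.1% of all genes tested, a share near the background. The median log2 difference of the 10 genes on day 14 was -0.00068, beside -0.0011 over all genes. Between the diets 0 of 10 were called, also with the day as a block, with a median of -0.0098 beside -0.0020. At an unadjusted limma p under 0.05 it was 1 of 10 (Slc46a1), against 2547 of the 14953 genes tested. The heme and control pools did not overlap for 5.6% of all genes tested, but overlapped or touched for each of the 10. The day comparisons share the 5 control pools.

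The promoters of 7 of the 10 genes were in RefSeq's table, all but Hmox1, Slc48a1 and Fech. The antioxidant response element TGACNNNGC, at which Nrf2 and Bach1 bind, was searched, as were the others, on both strands in the 250 bases before each start. It lay in Blvra (GCTCGGTCA at -49 to -41) and Flvcr1 (TGACCCCGC at -151 to -143), and 10.2% of all promoters hold it. The Maf recognition core TGCTGAGTC lay in none of the 7 and in 0.344% of all promoters. Neither Blvra nor Flvcr1 was called between the diets.

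Other genes that Bach1 is known to repress were read from a list of 12, all tested. Of these, 3 were called higher between the diets and none lower, against 0.669% of all genes called in either direction. They were Gclc, the catalytic subunit for glutathione synthesis (log2 fold change 0.62, limma adjusted p = 0.0208), the malic enzyme Me1 (1.48, adjusted p = 0.0165) and Ftl1, the ferritin light chain that stores iron (0.35, adjusted p = 0.0378). These calls were often lost when single pools were left out. The differences stayed above 0 throughout, at 0.51 to 0.68 in Gclc, 1.27 to 1.68 in Me1 and 0.30 to 0.41 in Ftl1. Gclc was no longer called without the control pool of day 0, 2, 4 or 14, nor without heme day 7 (adjusted p between 0.0537 and 0.098). The same held for Me1 without the control pool of day 0 or 4 or the heme pool of day 7 (0.0616 to 0.0712), and for Ftl1 without any 1 control pool or without heme day 4, 7 or 14 (0.0578 to 0.129). With the day as a block, Gclc and Ftl1 had limma adjusted p = 0.0525 and 0.0718. Over all 19 other settings, Gclc was called in 10, Me1 in 13 and Ftl1 in 6. Their limma adjusted p reached 0.197, 0.167 and 0.231. The median of the 12 genes was 0.18 log2 above the control pools on day 2, 0.16 on day 4, 0.29 on day 7 and 0.41 on day 14, beside medians between -0.0051 and 0.0042 over all genes. In Gclc the differences were 0.43, 0.42, 0.68 and 0.94 on days 2, 4, 7 and 14, and in Nqo1, a quinone reductase, 0.29, 0.43, 0.83 and 0.90. On day 2, 8 of the 12 lay above the 0.11 of Hmox1 and 4 below it (Srxn1, Sqstm1, Fth1 and Slc7a11). That tally depends on the reference. Against the control pool of day 2 alone, Hmox1 was at 0.21. On that basis only Me1 and Gclc lay above Hmox1, Nqo1 lay just below it, and the rest of the 12 were lower still. None of the 12 was called on day 2, and the contrast with Hmox1 in timing was not tested. On day 14, 8 of the 12 rose and none fell, against 27.1% of all genes called. Fth1, the ferritin heavy chain, differed by -0.08 log2 that day (adjusted p = 0.26), and Slc40a1, the iron exporter ferroportin, by -0.15 (adjusted p = 0.156).

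**Figure D3:**
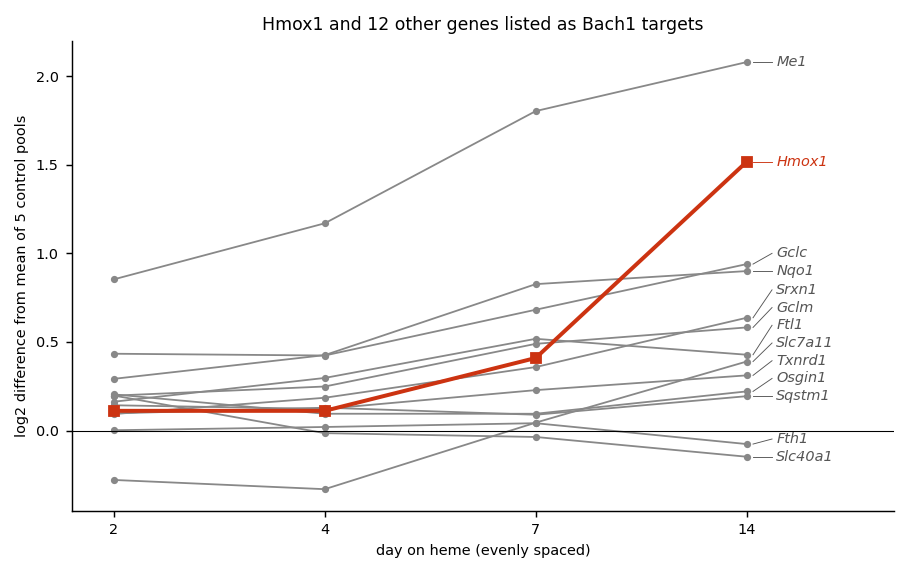
Log2 difference from the mean of the 5 control pools (vertical axis) on days 2, 4, 7 and 14 of heme (horizontal axis, evenly spaced) for Hmox1 (thick red line) and 12 other genes listed as Bach1 targets (grey lines), 1 pool per point. Hmox1 lies flat at 0.11 on days 2 and 4 and ends at 1.52, below Me1 (2.08) and above the other 11.

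Genes for the rest of heme synthesis, 10 tested of 12 listed, had a median log2 fold change of 0.03 between the diets. Of these 1 rose and none fell. Abcb6, a porphyrin transporter, was 0.38 higher (SE 0.05, limma adjusted p = 0.00668), with differences of 0.29, 0.41, 0.41 and 0.41 on days 2, 4, 7 and 14. The difference was called on day 14 (adjusted p = 0.0144) and not on the other days. The call between the diets was lost without both pools of day 4, 7 or 14 (adjusted p = 0.0964, 0.0667 and 0.0952). On day 14 Alad, which joins the first pyrrole, rose by 0.35 (adjusted p = 0.0232) and Tmem14c, a carrier of porphyrinogens, by 0.24 (adjusted p = 0.0438), while Ppox, the protoporphyrinogen oxidase, fell by 0.29 (adjusted p = 0.0168). Together with Abcb6 these were 4 of 10 called on that day, against 27.1% of all genes.

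Among 10 tested genes of other heme carriers and heme-binding proteins (11 listed), none was called between the diets (median 0.06). The largest differences were in Abcc5, an exporter of the ABC family (0.40, limma adjusted p = 0.142), and Abcg2, an exporter of porphyrins and drugs (0.35, adjusted p = 0.0514). Abcg2 rose by 0.46 on day 7 (adjusted p = 0.0333). On day 14, when 11.3% of all genes were called higher, 3 of the 10 rose and none fell. They were Abcg2 (0.50, limma adjusted p = 0.00623), Abcc5 (0.52, adjusted p = 0.0485) and Hp, the hemoglobin-binding haptoglobin (0.37, adjusted p = 0.0106). Hp was dim, with control pools at 5.03 or 5.08 log2 and the filter at 4.716. Against the control mean Hp was at 0.38 on day 2, 0.08 on day 4 and -0.25 on day 7, so it showed no steady rise. Hpx, the plasma heme scavenger hemopexin, differed by 0.09 between the diets (limma adjusted p = 0.561). On the list for bilirubin, 2 of 4 genes were tested. Abcc3, which exports conjugates across the basal membrane, rose by 0.36 (adjusted p = 0.0187, or 0.0525 with the day as a block). It was not called without the control pool of day 0, 4 or 14 or the heme pool of day 7 (0.0633 to 0.0863). Abcc2, its apical counterpart, differed by 0.47 (adjusted p = 0.162). On day 14 Abcc3 was 0.52 and Abcc2 0.57 log2 above the control mean, and on day 7 they were at 0.41 and 0.85. In limma Abcc3 was called on both days and Abcc2 on day 14 only.

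None of the 8 partners and relatives of Bach1 and Nrf2 was called between the diets (median 0.01). Nfe2l2, which encodes Nrf2, differed by -0.07 (limma adjusted p = 0.382) and Keap1, which holds Nrf2 in check, by 0.02 (adjusted p = 0.798). The largest values were 0.10 for Maff, a small Maf partner (adjusted p = 0.416), and -0.08 for Nfe2l1 (adjusted p = 0.302). On day 14, 3 of the 8 were called, beside 27.1% of all genes. Mafg, another small Maf, rose by 0.16 (limma adjusted p = 0.0283), while Nfe2l1 fell by 0.17 (adjusted p = 0.0441) and Cul3, the ligase subunit that works with Keap1, by 0.18 (adjusted p = 0.0273). Of other regulators that bind heme or iron, 4 of 5 were tested and none was called. Nr1d1 and Nr1d2, the heme-binding clock repressors, differed by -0.21 and -0.12 (adjusted p = 0.286 and 0.271). On day 14, when 15.8% of all genes were called lower, 3 of these 4 fell. Nr1d1 fell by 0.42 (adjusted p = 0.00943), Nr1d2 by 0.19 (adjusted p = 0.0475) and Ireb2, an iron-sensing RNA-binding protein, by 0.23 (adjusted p = 0.00789). Of 14 genes for the iron that heme releases, 1 rose between the diets, Ftl1, and none fell, with a median of 0.0038.

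For the labelled epithelium, all 12 epithelial markers, Epcam and Krt8 among them, lay above the filter, and their mean stood between 11.9 and 12.1 log2 in every pool. That mean was higher in all 4 heme pools (0.04 to 0.08 above the control mean) than in any control pool (-0.03 to 0.03). Aqp8 had the largest rise of the 12 in every heme pool, at 0.52, 0.42, 0.81 and 0.89 on days 2, 4, 7 and 14. The median of the 12 was -0.0034, 0.025, 0.025 and 0.038 on those days, so the higher mean rests largely on Aqp8. Single markers went both ways. On day 14 limma called 3 of the 12 higher, Aqp8 (0.89), Krt20 (0.36) and Vil1 (0.17), and 3 lower, Car4 (-0.28), Muc2 (-0.23) and Cdh1 (-0.21), beside 27.1% of all genes called. Aqp8, a water channel of the surface epithelium, was also higher between the diets (0.66, limma adjusted p = 0.0113). Other cells differed between pools, and in bulk RNA fewer cells of a type cannot be told apart from less RNA per cell. Macrophages express Hmox1 strongly. The mean of 12 macrophage markers, Cd68 and Csf1r among them, lay 0.18 log2 above the control mean in the heme pool of day 14 and 0.34 above it in the control pool of day 14, where Hmox1 read 5.89. Over all pools it lay between -0.29 and 0.34 in the control and between -0.39 and 0.18 in the heme pools. For smooth muscle (8 markers, Acta2 and Myh11 among them) the range was -1.04 to 1.38 in the control and -1.15 to 0.75 in the heme pools. The smooth muscle mean stood at 0.75 and -0.89 in the heme pools of days 7 and 14, on opposite sides of the control mean. In the control pools of days 7 and 14 it stood at 1.38 and 0.22, so each heme pool lay below the control pool of its day. Slc46a1 was at -1.23 and -1.31 from its control mean in these heme pools. Fibroblast markers (6, Col1a1 and Dcn among them) ranged from -0.65 to 0.54 and from -0.73 to 0.24, and lymphocyte markers (7, Cd79a and Cd3e among them) from -0.14 to 0.10 and from -0.34 to -0.04. Markers of the exocrine pancreas (8 of 10 measured, Cpa1 and Prss2 among them) stood 2.36 above the control mean in the control pool and 2.84 in the heme pool of day 2, and below it in all others. Of 12 erythroid genes 4 were measured, and their mean moved by at most 0.13. The part of these cells in the values of the 10 genes was not tested.

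**Figure D4:**
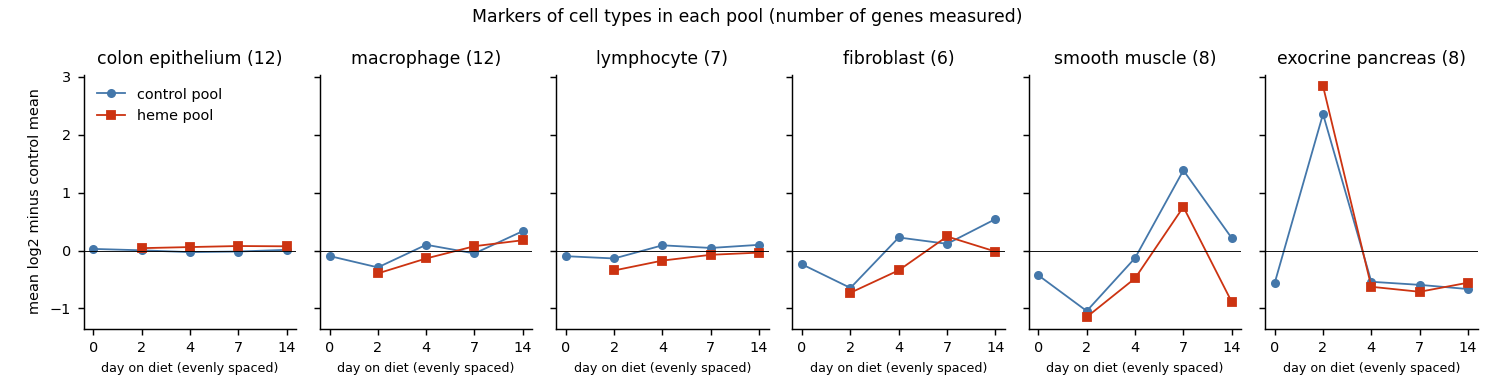
Mean log2 of each marker list minus its mean over the control pools (vertical axis) by day on diet (horizontal axis, evenly spaced), with blue circles for control pools and red squares for heme pools, 1 array each. The mean of the epithelial markers stays within 0.08 of its control mean, with all heme pools above all control pools, largely through 1 marker, Aqp8. Pancreas markers peak in both pools of day 2, and macrophage markers in the heme pool of day 14 (0.18) lie below those of the control pool of that day (0.34).

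The patterns most like that of Hmox1 were sought by Pearson correlation over the 9 pools among all genes tested. The 8 nearest were Rabep2 (r = 0.989), the glutathione transferase Gstm1 (0.982), Col22a1 (0.976), the cell cycle inhibitor locus Cdkn2a (0.976), Cox8c (0.974), 1700016A09Rik (0.974), the signalling ligand Wnt7b (0.973) and Sec61b of the protein translocon (0.973). Spearman's rho lay between 0.689 and 0.945. The correlations do not reflect size. On day 14 Rabep2 was 0.10 log2 above the control mean and the others 0.26 (Wnt7b) to 0.42 (1700016A09Rik), against 1.52 for Hmox1. With the late heme pools (days 7 and 14) left out, the Pearson values over the other 7 pools were between 0.386 and 0.79, so the likeness rests mostly on those pools. Closest to Slc46a1 were Ctss, the lysosomal protease cathepsin S (r = 0.991 over 9 pools, 0.885 over 7), and Lrrc26 (0.989 and 0.961). Among the 10 genes themselves, Hmox1 correlated with Alas1 at r = 0.859 (Spearman's rho 0.39) and with Slc46a1 at r = -0.817 (rho -0.809), as descriptions of 9 pools that share a control group and a time course.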

How the data were processed

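RNA of the colon scrapings was pooled per diet and day, and the authors deposited log2 values per probeset made with RMA, per the submitters' processing notes. Its version was not found in those notes. RMA sets the arrays to a common distribution, which removes shifts shared by all genes. Ties are frequent: for 5146 tested genes at least 2 control pools are equal. Array medians lay between 5.923 and 5.963 log2 in 8 arrays and at 5.895 in the heme array of day 14, on which all 3 calls of that day rest. Its upper quartile was 7.673, against 7.745 to 7.794 in the other 8. Precision is limited by the count of arrays, 9 in all.

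Of 35556 probesets, 21789 had 1 gene symbol in the platform annotation, 1621 had several and were left out, and 12146 were unnamed here. By Entrez ID, 21698 were matched to the RefSeq gene table. Genes whose mean lay at or above the 25th percentile (4.716 log2) were tested.

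limma 3.58.1 in R 4.3.3 (lmFit, eBayes with an intensity trend, Benjamini-Hochberg over all 14953 genes, called at an adjusted p under 0.05) compared 4 heme with 5 control pools, each heme day with the 5 control pools, late with early days over 8 pools, and the control pools over time as a slope on log2(day + 1). A heme day has 1 pool, assumed to vary like the control pools (4 residual degrees of freedom). The fits were tested on simulated data. Tables and plots used Python 3.11.15, pandas 2.3.3, scipy 1.17.1 and matplotlib 3.10.9.

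The labels share days between diets, though not animals. Deviations of same-day pools correlated with r = 0.651, -0.005, 0.333 and 0.168 on days 2, 4, 7 and 14. Pairs of pools from different days ran from -0.454 to 0.422, so only the value of day 2 lay outside that range. A blocked fit (day as block) is quoted where it changes a call. Within a day, exchanging pools gives 16 arrangements and no exact p under 0.125.

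The 10 genes, lists and tests were chosen with earlier results of these data known. Named are all 10 genes. From each list the genes called between the diets are named, or the 2 with the largest change where none was. By likeness, the 8 genes closest to Hmox1 and the 2 closest to each other gene are named. Other names (Nqo1, Fth1, Slc40a1, Hpx, Nfe2l2, Keap1, Abcc2, epithelial markers called on day 14 and genes called only on a later day) were chosen after their values were seen. Alternatives were other filters, no trend, the mean of probesets, centred arrays, the block, and pools left out.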

Additional observations from a re-analysis of the deposited data

Results flagged for a closer look

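In 20 groups of pools, each a diet for 1 of the 10 genes, a single pool stood apart from the rest of its group in 3, where chance gives about 1 in 20. Blvrb read 7.50 log2 in the control pool of day 2, with the gap to the next pool 0.745 of the whole range. Flvcr1 read 7.75 in the heme pool of day 4 (gap 0.943 of the range) and Slc48a1 7.55 in the heme pool of day 2 (gap 0.977). In Flvcr1 4 pools share the identical value of 7.83, so a small gap stands out against near-equal neighbours. The heme pool of day 14 for Hmox1 did not pass this limit among 4 pools.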

How the results depend on the processing

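None of the 10 genes was called between the diets, late against early or along the control days under any setting tried. Hmox1, Slc46a1 and Alas1 kept their calls of day 14 in the 8 settings run for that day, which were no filter, no trend, centred arrays and each control pool left out. Hmox1 was not tested with the filter at the median. On day 7 leaving out single control pools gave 0 to 1 of the 10 called, Slc46a1 being the gene. Signs turned only for differences near 0. Hmox2 was 0.013 with centred arrays, 0.0091 without both pools of day 7 and -0.021 to 0.0094 with single pools left out. Blvrb was 0.015 with centred arrays, 0.030 without both pools of day 2 and -0.025 to 0.027 with single pools left out. Flvcr1 was 0.026 with the mean of probesets. Slc48a1 was -0.018 with the day as replicate block, -0.0011 without both pools of day 7 and -0.018 to 0.034 with single pools left out. The control slope of Hmox1 was 0.0051 on day itself and -0.059 to 0.075 with single pools left out. Over all genes, the 100 calls between the diets became 1, 0 and 0 without both pools of days 4, 7 and 14, and 30 to 251 with single pools left out. The single call of day 4 became 0 without the filter, without the trend or with any control pool left out. Day 2 gave 0 to 16 calls with single pools left out. The 244 calls of day 7 became 93 without the filter, 115 without the trend and 8 to 68 with single pools left out. The late-minus-early count of 0 became 114 as a difference of slopes, where Hmox1 had an adjusted p of 0.0707 and Slc46a1 of 0.0708. With the day as a block the diet count was 77. Centring the arrays moved the split of day 14 from 1686 higher and 2359 lower to 2260 and 1683. The cause of these shifts was not tested.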

Other observations

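The genes of iron handling that moved on day 14 went in both directions. Slc11a2, the importer of iron at the apical membrane, was 0.39 log2 lower (limma adjusted p = 0.0253), and Slc39a14, a carrier of zinc and iron, 0.56 lower (adjusted p = 0.0124). Aco1, the aconitase that also senses iron, was 0.23 higher (adjusted p = 0.0223), and Pcbp2, an iron chaperone and RNA-binding protein, 0.16 lower (adjusted p = 0.026). With Ftl1 these were 5 of 14 called on a day on which 27.1% of all genes were. Tfrc, the transferrin receptor, differed by 0.03 (adjusted p = 0.826).

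For the genes other than Hmox1 and Slc46a1, the 2 nearest patterns had Pearson values of at least 0.916 over the 9 pools. They were Tyw3 and Fgf12 for Hmox2, Chsy1 and Syt15 for Blvra, F630042J09Rik and AI661453 for Blvrb, Socs7 and Elovl7 for Bach1, Myl4 and Tpst1 for Flvcr1, Dlc1 and Rab38 for Slc48a1, Ebf3 and Gstt3 for Alas1, and 4933413J09Rik and Esrp1 for Fech. With the 2 most outlying pools of each gene left out, these values ran from 0.491 (Socs7) to 0.937 (Syt15) over 7 pools. Each pair is the top of a ranking over all genes tested. How high such top values run by chance was not tested, so the names are descriptions only.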
